A study of Xenopus tropicalis with 12 samples.

Results

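Muscle and part of the mesenchyme of the frog arise from cells of the gastrula's marginal zone. The genes described here are 8 transcription factors (TFs) known from early muscle or mesenchyme: myf5, myod1, msgn1, mespa, mespb, snai1, snai2 and twist1. The members were taken by name from the study's catalogue of TFs. All 8 had a gene model, out of 1197 TFs with a gene model and 26550 gene models in all. Early gastrulae of Xenopus tropicalis, stage 10 to 10.25, were cut into animal cap, dorsal, lateral and ventral marginal zone, and vegetal mass, and the polyA RNA of the pieces and of whole embryos of the same clutches was sequenced. There were 12 libraries in 6 groups of 2, where each library held pooled explants and each replicate number was a separate clutch. No mutation or treatment is named for the embryos, and the regions were compared with each other. The explants were cut by hand and held mixtures of cells, in which fewer cells of a type cannot be told apart from less RNA per cell.

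The myogenic factors myf5 and myod1 are basic helix-loop-helix (bHLH) proteins that start the muscle program in cells of the paraxial mesoderm. Mesogenin, encoded by msgn1, and the Mesp proteins are also bHLH factors and act in mesoderm that has not yet formed somites. The zinc finger repressors of the Snail family and the bHLH factor Twist are known for the loosening of epithelia into migrating cells, and for marking mesoderm and, later, neural crest.

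Library totals ranged from 14634582 to 29166548 expected counts, the reads assigned to genes, and their median was lower in replicate 2 (16574839) than in replicate 1 (27977760). Levels below are in TPM, transcript abundance scaled to a fixed library sum and corrected for transcript length. The labels were checked against 8 marker genes. In both replicates sox17a, mixer and foxa1 were highest in the vegetal mass, gsc in the dorsal marginal zone, ventx1.1 and ventx1.2 in the ventral marginal zone and foxi1 in the animal cap. The pan-mesodermal t was above its other levels in all 3 marginal zones. The animal cap had some transcript of marginal zone markers, with t at 36.1 TPM in replicate 1 and 15.8 TPM in replicate 2, which is 4.76% and 2.17% of the marginal zone mean of the same clutch.

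The 8 genes differed widely in amount. In whole embryos snai1 was the most abundant at 158 and 112 TPM in replicates 1 and 2, which placed it 105th of the 1197 TFs by mean level. Next were mespb at 73.0 and 77.7 TPM, ranked 167, and myf5 at 33.4 and 31.0 TPM, ranked 299. In the middle of the TFs were msgn1, at 6.34 and 13.0 TPM, and mespa, at 7.83 and 5.32 TPM. The remaining 3 genes were scarce, with means of 0.865 TPM for snai2, 0.795 TPM for twist1 and 0.58 TPM for myod1, against a median of 4.50 TPM over the TFs. For each member and clutch, the level in whole embryos lay between the lowest and the highest region.

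**Figure D1:**
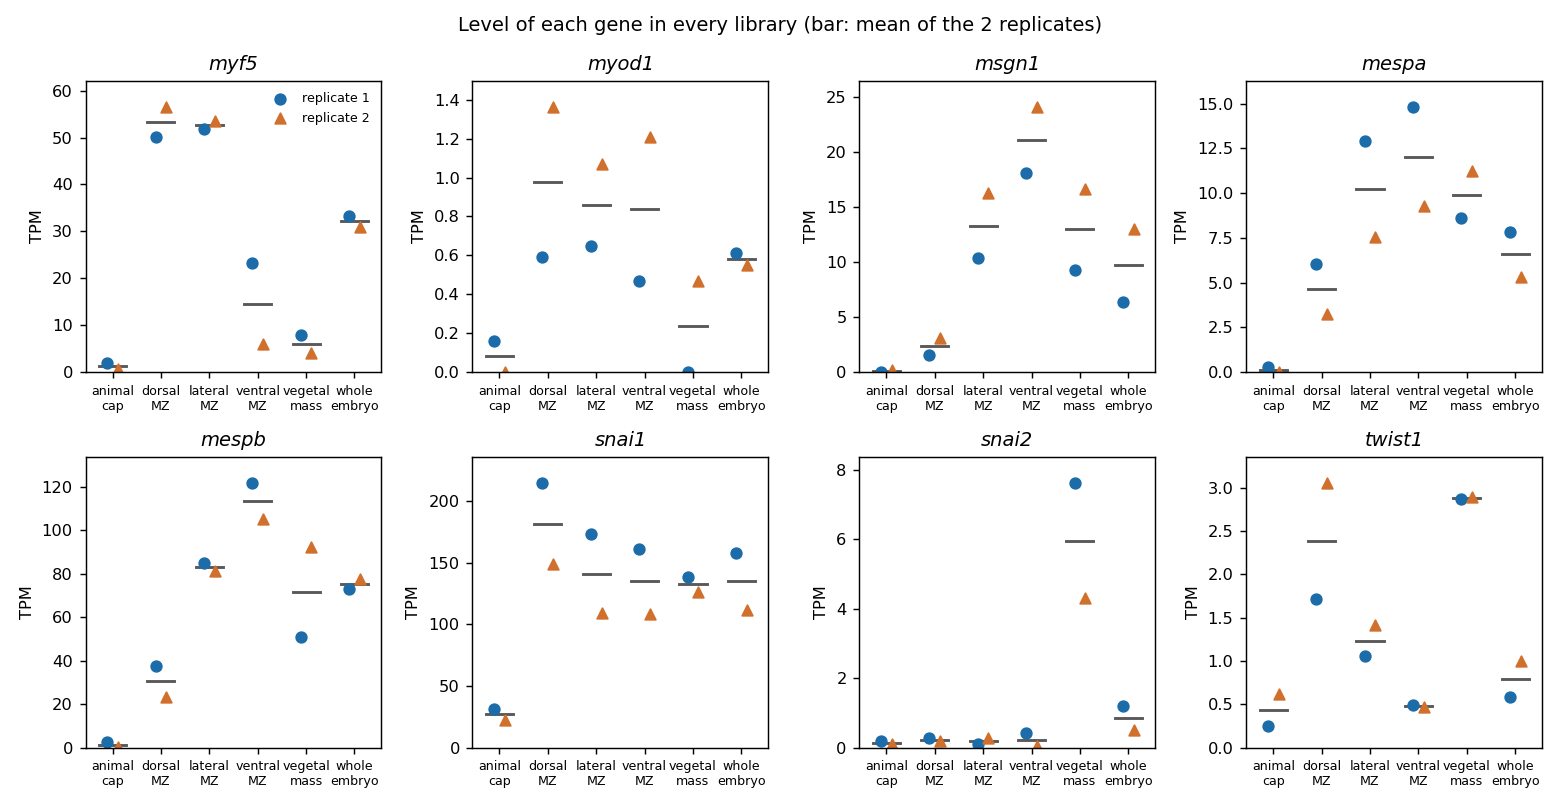
Level in TPM (vertical axis, starting at 0 and scaled to each gene) of the 8 genes in the 6 groups, with a point for each replicate and a bar at their mean (MZ, marginal zone). The genes fall at different places: myf5 is high in dorsal and lateral marginal zone, msgn1, mespa and mespb are highest on average in the ventral marginal zone, snai1 is lowest in the animal cap, and snai2 is above 2 TPM in the vegetal mass alone.

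The muscle regulator myf5 (Xetrov90007873) was high on the dorsal and lateral sides of the marginal zone. Dorsal explants had 50.1 TPM in replicate 1 and 56.4 TPM in replicate 2, and lateral explants 51.9 and 53.5 TPM. Ventral explants had 23.2 TPM in replicate 1 and 6.06 TPM in replicate 2, the vegetal mass 7.95 and 4.00 TPM, and the cap 1.88 and 0.72 TPM. In each clutch the order was thus the same from ventral marginal zone to vegetal mass to animal cap, while dorsal and lateral changed places. Of the regions above 2 TPM in both clutches, the ventral zone differed most between them in ratio.

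The related factor myod1 (Xetrov90028903), which drives muscle differentiation, was near the limit of detection. It had 38 counts over all 12 libraries, between 0 and 7 per library, and was too low to be tested. The marginal zones held 28 of those counts, at 0.47 to 1.36 TPM, against 1 count over both animal caps and 2 over both vegetal masses. With the counts of both caps pooled, the cap level was 0.101 TPM and the ratio of the marginal zone mean to it was 8.80. Its exact Poisson 95% interval of 1.58 to 347 is on the count in the caps and covers counting error there only. Other muscle factors of the same family were also low, with myf6 at most 0.28 TPM and myog at most 0.48 TPM in any library.

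The presomitic regulator msgn1 (Xetrov90015181) was graded around the marginal zone in the other direction from myf5. Dorsal explants had 1.54 and 3.11 TPM, lateral explants 10.3 and 16.3 TPM, and ventral explants 18.1 and 24.0 TPM, so the order was the same in both clutches. The vegetal mass held 9.24 and 16.7 TPM, close to the lateral level in each clutch. In the animal cap it had no count in replicate 1 and 1 count, or 0.14 TPM, in replicate 2.

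The Mesp genes had the same order of regions along the marginal zone at different amounts. The level of mespb (Xetrov90008917) was 37.7 and 23.5 TPM in dorsal, 85.1 and 81.5 TPM in lateral and 122 and 105 TPM in ventral marginal zone. For mespa (Xetrov90008919) these were 6.05 and 3.24 TPM, 12.9 and 7.54 TPM, and 14.8 and 9.25 TPM. In the vegetal mass mespb was at 51.1 and 92.4 TPM and mespa at 8.62 and 11.2 TPM, so that the vegetal mass was below the lateral and ventral zones in replicate 1 and above the lateral zone in replicate 2. The animal cap had 2.43 and 0.24 TPM of mespb, and 0.27 and 0 TPM of mespa. In the 11 libraries with a count for mespa, mespb was 5.92 to 14.6 times as abundant. The deposited counts include reads shared with other genes by estimation, with fractional counts for mespb in 7 of 12 libraries. Counts were whole in 11 of 12 libraries for mespa, 6 of 12 for myf5 and 1 of 12 for snai1. Any reads common to the Mesp genes make each gene's level less certain than their sum.

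The repressor snai1 (Xetrov90025269) was abundant in every region but the animal cap. It had 214 and 149 TPM in dorsal, 173 and 109 TPM in lateral and 161 and 109 TPM in ventral marginal zone, and the vegetal mass had 139 and 127 TPM. Caps had 31.3 and 22.6 TPM. The dorsal marginal zone was the highest region in both clutches, and the 8 region libraries from outside the cap did not overlap with the caps.

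Its relative snai2 (Xetrov90016785), formerly slug and a known marker of premigratory neural crest, was a vegetal transcript at this stage. The vegetal mass had 7.61 and 4.30 TPM, from 225 and 84 counts. The 6 marginal zone libraries held 0.05 to 0.41 TPM, from 1 to 12 counts each, and the animal caps 0.18 and 0.12 TPM, so these regions overlapped. The ratio of snai1 to snai2 was 18.2 and 29.4 in the vegetal mass and 393 to 2174 in the marginal zones.

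The bHLH factor twist1 (Xetrov90016043), a regulator of mesenchyme, was low, and its highest libraries were dorsal and vegetal. Dorsal explants had 1.72 and 3.05 TPM, and vegetal explants 2.87 and 2.89 TPM. The lateral zone had 1.06 and 1.41 TPM, the ventral zone 0.49 and 0.47 TPM and the animal cap 0.25 and 0.62 TPM. These rest on 4 to 48 counts per library, and the cap and the ventral zone overlapped.

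The marginal zones were then compared with the animal cap, to ask which of the genes were higher in them at this stage. The vegetal mass is not in this contrast, so it does not separate mesodermal from endodermal transcripts. Of the 7 genes tested, 5 were higher in the marginal zones and none was lower, where 1.31% of all 15727 genes tested were called in either direction and 1.04% were higher. The largest changes were those of msgn1 and the Mesp genes. The same 5 genes passed with the replicate number as a block, where 5.86% of all genes did. The log2 fold change was 5.67 (SE 0.79) for mespa, 5.58 (SE 0.77) for mespb, 4.69 (SE 0.67) for myf5 and 2.47 (SE 0.20) for snai1, with adjusted p of 0.0205, 0.0196, 0.0212 and 0.00388 by edgeR's quasi-likelihood test, adjusted by Benjamini-Hochberg. For msgn1 the same test gave an adjusted p of 0.0265. Its fitted log2 fold change of 7.05 (SE 1.07) depends on how a count of 1 over both caps is treated. With the counts of both caps pooled, the cap level was 0.0523 TPM and the marginal zone mean was 234 times that. The 95% counting interval of this ratio, on the cap count alone, was 41.9 to 9231. Like msgn1, both Mesp genes entered the test through regions other than the cap. The caps had 5 and 0 counts of mespa and 34 and 2 of mespb, so these fold changes depend on the cap library used. Without cap replicate 1 and 2 in turn the fold changes were 10.04 and 4.97 for mespa, 7.92 and 4.87 for mespb, 5.75 and 9.65 for msgn1 and 5.41 and 4.29 for myf5. Of these, 10.04 and 9.65 are set by a cap with no count and are not bounds.

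The remaining 2 tested genes did not pass. twist1 had a log2 fold change of 1.36 (SE 0.60, adjusted p 0.894) and snai2 of 0.55 (SE 0.74, adjusted p 1) by the edgeR test, and snai2 had entered the test through its vegetal counts alone. The median log2 fold change over the 7 genes was 4.69, against 0.0055 over all genes tested. Within each clutch, the cap level as a share of the marginal zone mean was 4.51% and 1.86% for myf5, 2.98% and 0.343% for mespb, 2.40% and 0% for mespa, and 0% and 0.968% for msgn1. For the homeobox gene mixer it was 3.05% and 1.34%, so that the cap shares of t, mixer, myf5 and mespb were all lower in replicate 2, and the part of carried-over tissue in these values was not tested. The share of snai1 stood higher, at 17.1% and 18.5%, as did that of twist1 at 22.9% and 37.7%.

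Each single library left out leaves 1 library in its region, and fewer of all genes were then called in this comparison. Of the members, snai1 passed in every case. The count of 5 genes fell to 4 without vegetal replicate 2 or ventral replicate 2, to 3 without animal cap replicate 1, dorsal replicate 2 or ventral replicate 1, to 2 without animal cap replicate 2 or dorsal replicate 1, and to 1 without either lateral library. Without either lateral library the adjusted p of the lost genes was between 0.0502 and 0.0611. Without cap replicates 1 and 2 in turn it was higher, at 0.122 and 0.22 for myf5 and 0.176 and 0.0972 for msgn1.

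**Figure D2:**
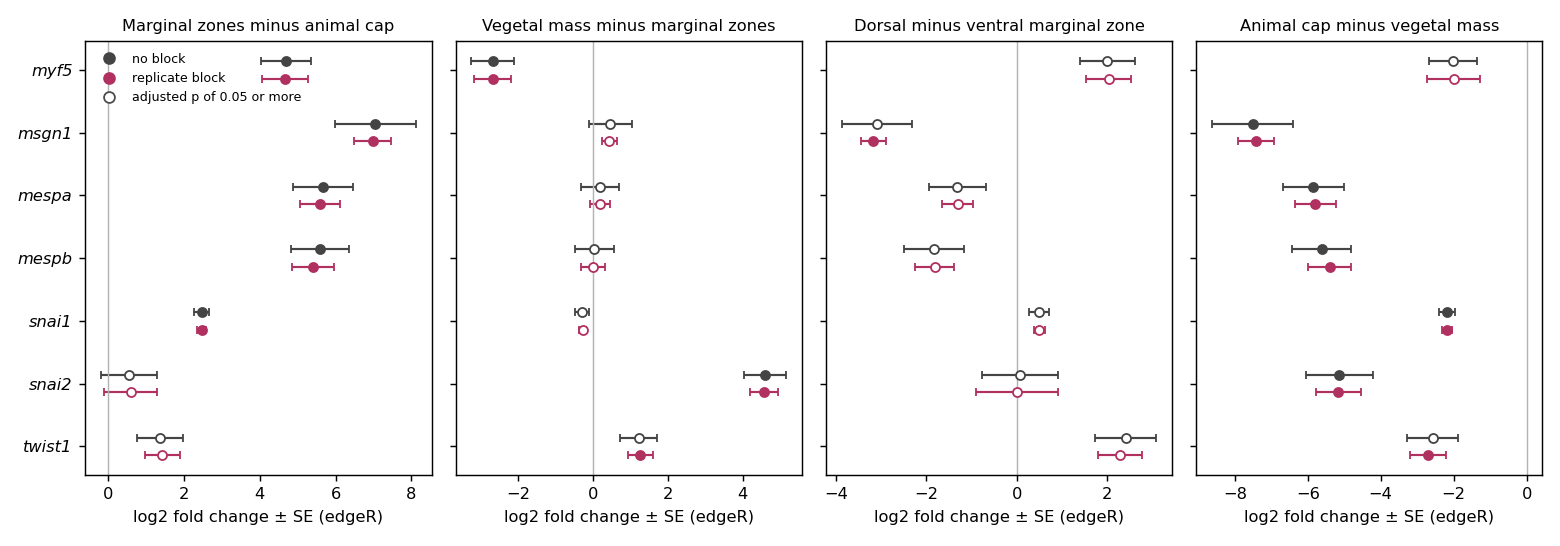
Log2 fold change (horizontal axis, with bars of 1 SE) of the 7 tested genes in 4 comparisons by edgeR, without and with the replicate number as a block. Filled points have an adjusted p under 0.05. Estimates hardly move between the fits, while the errors of msgn1 are smaller with the block, and it is filled in the dorsal to ventral comparison only there.

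The vegetal mass and the marginal zones share inducing signals at the blastula stage, and the next comparison asked which of the genes separated these regions. The gene snai2 was higher in the vegetal mass, with a log2 fold change of 4.59 (SE 0.57, adjusted p 0.00672 by edgeR). It passed the filter on low counts only through its vegetal libraries, so its call is not independent of that filter. The gene myf5 was lower, by a log2 fold change of -2.67 (SE 0.58, adjusted p 0.0403). With snai2, these were 2 of 7 genes, where 6.57% of all genes were called. With the replicate block twist1 was also called, at 1.27 (adjusted p 0.0127), against 1.22 (SE 0.49, adjusted p 0.217) without it, and 38.2% of all genes were called with the block.

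Vegetal levels of the other 4 genes were not separated from the marginal mean. Log2 fold changes were 0.46 (SE 0.57) for msgn1, 0.18 (SE 0.51) for mespa, 0.04 (SE 0.52) for mespb and -0.29 (SE 0.18) for snai1. Within the clutches the vegetal mass had 92.4% and 115% of the marginal mean for msgn1 and 76.6% and 168% for mespa. For mespb it had 62.7% and 132%, and for snai1 75.9% and 104%. All 4 genes thus lay below the marginal mean in TPM in replicate 1 and above it in replicate 2. For snai2 the vegetal share was 2854% and 2580%, and for myf5 19.1% and 10.3%. snai2 stayed past the threshold with each library left out. The call of myf5 was lost without any one animal cap, dorsal, lateral or vegetal library (adjusted p 0.0555 to 0.273) and kept without either ventral one.

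Against the animal cap, the vegetal mass was higher for msgn1, mespa, mespb, snai1 and snai2, where 8.04% of all genes were called and 4.40% were higher in the vegetal mass. Among these, snai2 had entered the test through its vegetal counts, against 5 and 2 counts in the caps. With few counts in the caps, msgn1, mespa and mespb had entered it through the marginal zones and vegetal mass, where they are higher. As cap minus vegetal mass, the log2 fold changes were -5.85 (SE 0.84) for mespa, -5.62 (SE 0.81) for mespb, -5.13 (SE 0.91) for snai2 and -2.18 (SE 0.22) for snai1, with adjusted p from 0.00202 to 0.0169 by edgeR. With the counts of both caps pooled, the vegetal to cap ratio of msgn1 was 247. Its 95% counting interval, on the cap count alone, was 44.4 to 9773. The 2 others pointed the same way without passing, twist1 at -2.58 (adjusted p 0.0694) and myf5 at -2.03 (adjusted p 0.118). With the replicate block twist1 passed as well, with an adjusted p of 0.00203, where 40.6% of all genes did. It had 4 and 6 counts in the caps and had entered the test mostly through the dorsal, lateral and vegetal libraries. DESeq2 called both twist1 and myf5, where 2540 of all genes were called. The call of snai2 was lost without any one cap or vegetal library (adjusted p 0.0549 to 0.125). Without cap replicate 1 and 2 in turn, the change was -10.24 and -5.14 for mespa and -7.97 and -4.90 for mespb. Here -10.24 is set by a cap with no count and is not a bound, and -7.97 rests on a cap with 2 counts. Without animal cap replicate 1 msgn1 was lost too (0.053), and the count was 3.

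The dorsal marginal zone gives rise to notochord and head mesoderm and the ventral one largely to posterior muscle and blood, and their comparison asked whether the genes are already unequal along this axis. None of the 7 genes passed in edgeR without the block, where 0.0445% of all genes did. The unadjusted p was under 0.05 for 4 of the 7, a count with no share over all genes to set beside it. With the replicate block msgn1 was lower in the dorsal zone, with a log2 fold change of -3.18 and an adjusted p of 0.000642, where 1.46% of all genes were called. Of the 7 genes DESeq2 called msgn1 alone, with an adjusted p of 0.00289, where 162 of all genes were called. Both limma fits called none of the 7, where 34 and 26 of all genes were called. The estimate without the block was -3.10 (SE 0.78, adjusted p 0.584).

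Each of the other changes missed the threshold in both edgeR fits. The log2 fold change was 2.41 (SE 0.68) for twist1, 2.01 (SE 0.61) for myf5, -1.84 (SE 0.66) for mespb, -1.31 (SE 0.64) for mespa, 0.50 (SE 0.21) for snai1 and 0.08 (SE 0.85) for snai2. With the block the smallest adjusted p among them was 0.057, for twist1. In levels, the dorsal zone had 8.50% and 12.9% of the ventral TPM of msgn1, 31.0% and 22.4% of that of mespb and 40.9% and 35.0% of that of mespa. It had 216% and 931% of the ventral level for myf5, 351% and 649% for twist1 and 133% and 137% for snai1. For these 6 genes the direction was thus the same in both clutches, and for snai2, with 1 to 12 counts in these libraries, it was not. Fits with each library left out in turn cannot decide here, since without the block they called no gene at all in this comparison.

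**Figure D3:**
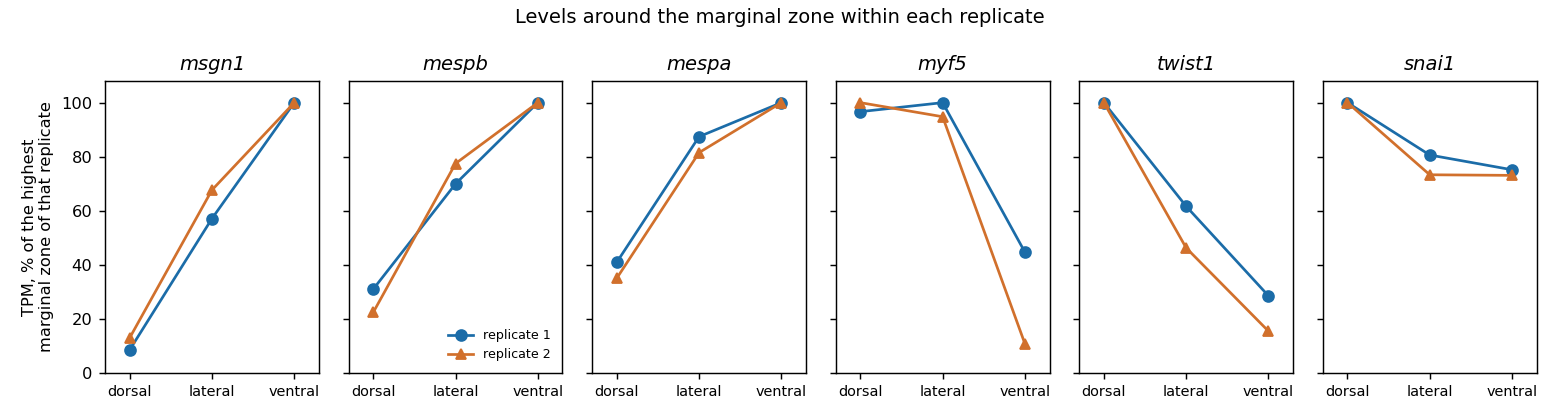
Level in each marginal zone as a percent of the highest marginal zone of the same replicate (vertical axis, from 0), for 6 genes. Lines of both replicates rise toward the ventral side for msgn1, mespb and mespa and end lower on the ventral side for myf5, twist1 and snai1. The ventral level of myf5 is 23.2 TPM in replicate 1 and 6.06 TPM in replicate 2, the widest gap between the lines.

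Among neighboring pieces, the lateral level of myf5 was nearer to the dorsal one and that of msgn1 nearer to the ventral one. For myf5, lateral and dorsal zones differed by a log2 fold change of 0.09 (SE 0.59), while lateral exceeded ventral by 1.91 (SE 0.61, adjusted p 1 by edgeR). For msgn1 the dorsal zone was at -2.46 (SE 0.77) relative to the lateral zone, with an adjusted p of 1 without the block and 0.00613 with it, and lateral and ventral zones were at -0.64 (SE 0.71). No member passed between neighboring marginal zones without the block, where 0% of all genes were called for either pair, and with the block 0.547% were called between dorsal and lateral zones. The ratio of msgn1 to myf5 in TPM put these opposite slopes in 1 number, at 0.0307 and 0.0551 in dorsal, 0.199 and 0.304 in lateral, 0.782 and 3.97 in ventral marginal zone, and 1.16 and 4.17 in the vegetal mass.

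Over all 10 pairs of regions, 22 of 70 combinations of gene and pair were called, against 1.90% over all genes, and 33 with the replicate block, against 14.3%. The test of any difference among the 5 regions called 6 of the 7 genes, where 3.83% of all genes were called. Among these 6 and in the combinations called, snai2 had passed the filter on low counts only through its vegetal libraries. Its calls are thus not independent of that filter. The same holds for msgn1, mespa and mespb, which passed it through regions other than the cap. This applies to their calls against the cap and in the test of any difference. twist1 was left out at an adjusted p of 0.178 and passed with the block at 0.00458, where 29.9% of all genes did. Leaving out a library lowered these counts, most without animal cap replicate 2, and fewer of all genes were called in each such fit as well. In the order of mean levels, no 2 regions outside the cap were separated for msgn1, mespa, mespb or snai1 without the block. With the block, the dorsal zone was separated from the lateral and ventral zones for msgn1, as given above. For myf5, dorsal and lateral zones each exceeded the vegetal mass (adjusted p 0.0455 and 0.0469), and the ventral zone was separated from no region without the block and from the cap with it (adjusted p 0.0441). For snai2, the vegetal mass exceeded the cap and the dorsal and lateral zones, and missed the threshold against the ventral zone without the block (adjusted p 0.0505) but not with it (0.000469). With the block, msgn1 was lower in dorsal explants than in vegetal ones (adjusted p 0.000287) and lower in vegetal than in ventral ones (0.0233), and snai1 was higher in dorsal than in vegetal explants (0.59 on the log2 scale, adjusted p 0.00483). Also with the block, the cap was lower than the dorsal zone for msgn1 (adjusted p 0.00122) and twist1 (0.0164), and twist1 was lower in ventral than in vegetal explants (0.00473). The caps had 0 and 1 counts of msgn1 and 4 and 6 of twist1, and the ventral zone 8 and 5 of twist1. Both genes passed the filter mostly through regions where they are higher, so these calls are not independent of it.

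The TFs whose regional profile was most like that of each member were found among 842 TFs by the correlation of log2(TPM + 1) over the 10 region libraries, after removal of each clutch's mean. These libraries are few and share 2 clutches, so r is given as a description. For myf5 the nearest were t2 (r 0.97), foxb1 (0.95) and ddit3 (0.91). The nearest to mespa was mespb (0.98), and those of msgn1 were mesp2 and myc (both 0.96) and mespa (0.95). For mespb, vegt and mix1 followed mespa (both 0.95), and for mespa, bix1.6 (0.95) and msgn1 came after mespb. The profile of snai1 was most like foxc1, eomes and egr1 (all 0.98), that of snai2 like uncx, nfe2l2 and ptf1a (all 0.99) and that of twist1 like dmbx1 (0.97), hhex and zic2 (both 0.96). Among the members, snai1 had r of 0.89 with mespb, 0.88 with mespa, 0.79 with myf5 and 0.71 with msgn1, while r was 0.40 between myf5 and msgn1 and -0.25 between myf5 and snai2.

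The same comparisons were made for lists of related TFs that are not members. Of a list of 11 mesodermal TFs, 9 had a gene model and 8 were tested. Of the 8, 5 were higher in the marginal zones than in the cap (t, t2, eomes, vegt and foxc1), where 1.04% of all genes were higher. With the block 7 were higher, where 5.86% of all genes were called in either direction. The median log2 fold change over the 8 was 4.83. The gene t had also been used to check the labels, so its call is not separate from that check.

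Of 10 mesenchyme and neural crest TFs, 5 were tested and none passed between marginal zones and cap without the block, where 1.31% of all genes did. At an unadjusted p under 0.05 there were 2. With the block 2 were called, where 5.86% of all genes were. Between vegetal mass and marginal zones foxd3, a neural crest and pluripotency factor, passed at a log2 fold change of -4.29 (adjusted p 0.00576 by edgeR), the reverse of snai2. This was 1 of the 5 tested, where 6.57% of all genes were called. With the block zeb2 was lower as well (-2.70, adjusted p 0.00139 by edgeR), where 38.2% of all genes were called. The E proteins that pair with myf5 and the other bHLH members, tcf3, tcf4 and tcf12, were present in all regions. Vegetal explants had less tcf3 and tcf12 than the marginal zones, at -0.94 (adjusted p 0.0299) and -2.26 (adjusted p 0.00605) by edgeR. The third, tcf4, did not pass without the block, at -0.67 (adjusted p 0.189 by edgeR). Thus tcf3 and tcf12 were 2 of the 6 bHLH partners and inhibitors tested, where 6.57% of all genes were called. With the block 4 of the 6 were lower in the vegetal mass and 1, id2, was higher (1.55), where 38.2% of all genes were called. None of those 6 passed between marginal zones and cap without the block, with 1 at an unadjusted p under 0.05, and 2 passed with it. The share of all genes at an unadjusted p under 0.05 was not taken.

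The clutches were compared over all 12 libraries with the group in the model. Of the 7 tested genes 3 were called, where 65.9% of all 15848 genes tested were. In replicate 2 msgn1 was higher by a log2 fold change of 1.03 (SE 0.15, adjusted p 9.6e-05 by edgeR) and had the higher TPM in 6 of 6 groups. twist1 was higher by 0.75 (SE 0.26, adjusted p 0.0237), in 5 of 6 groups, and snai1 lower by a log2 fold change of -0.21 (SE 0.065, adjusted p 0.0129), in 6 of 6 groups. The call of twist1 was lost in DESeq2 (adjusted p 0.0627), in limma on log2(TPM + 1) and log2(TPM + 0.1) (0.0549 and 0.0637), with only the 10 region libraries (0.058) and without either dorsal, lateral or whole embryo library (adjusted p 0.0545 to 0.0834), and that of snai1 without either ventral library (0.0506 and 0.0508). The other values were -0.19 for myf5, -0.26 for mespa, 0.20 for mespb and -0.56 for snai2, none past the threshold. mespa passed in both limma fits (-0.42 and -0.73) and without either vegetal library (-0.47), and snai2 without either lateral library (-0.82). Each side of this comparison is a single clutch, so its p-values measure steadiness over the libraries of these 2 clutches only. With 1 library per clutch and group, clutch cannot be told apart from the handling of each dissection.

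**Figure D4:**
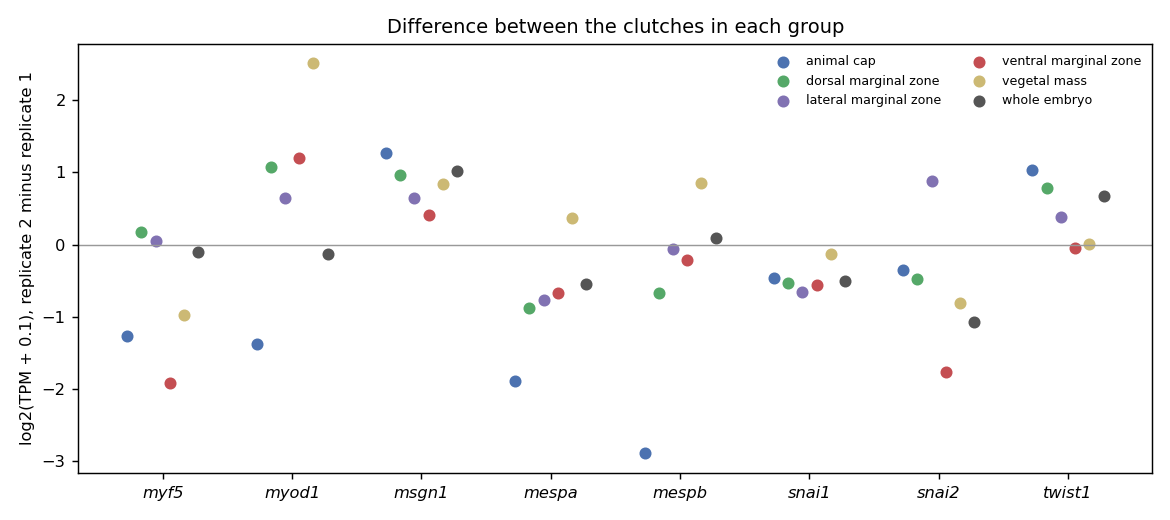
Difference in log2(TPM + 0.1) between replicate 2 and replicate 1 (vertical axis) for each gene, with a point for each of the 6 groups. All 6 points lie above 0 for msgn1 and below 0 for snai1, while in mespa and mespb the vegetal mass is above 0 and the cap, dorsal, lateral and ventral points are below it.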

How the data were processed

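The authors mapped 50-bp reads with RSEM 1.2.12 to the v9.0 assembly and deposited an expected count per gene and library, not normalized between libraries. The TPM values, also deposited by the authors, scale these for transcript length and depth. RSEM divides reads among matching genes, and strand is not stated to be used, so overlapping genes are uncertain. Expected counts were rounded, filtered (filterByExpr), scaled by TMM and entered into edgeR 4.0.16 (R 4.3.3, robust quasi-likelihood test), in a single model of the 10 region libraries, or 12 for clutches, with Benjamini-Hochberg adjustment over all genes and a threshold of 0.05. This edgeR test reports no SE. Each SE shown for it was worked back as the size of the log2 fold change over the square root of its F statistic. The 13 region comparisons overlap in their samples. Replicate numbers pair the samples, since each is a clutch of its own. Deviations from group means correlated at 0.657 to 0.823. Alternatives were the replicate block, DESeq2 1.42.0, no TMM, no filter, only the libraries compared, limma 3.58.1 on log2 TPM with 1 or 0.1 added, and each library left out. Tests were tried on simulated data. The authors' EBSeq was not run, and no sequence or coordinate was used here. All 8 members are named. Related genes come from lists of mesoderm, mesenchyme and bHLH TFs, named where a count was 5 or fewer, and a further list is not reported here. The members and lists were chosen with earlier results of these data known. Other steps used Python 3.11.15, pandas 2.3.3, scipy 1.17.1 and matplotlib 3.10.9.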

Additional observations from a re-analysis of the deposited data

Results flagged for a closer look

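For 3 members the sign of the difference between vegetal mass and marginal zones was not the same in the clutches, and the difference between clutches was not tested, since each clutch has 1 library per region. On the log2(TPM + 0.1) scale, vegetal mass minus marginal zones was -0.28 in replicate 1 and 0.87 in replicate 2 for mespa, -0.52 and 0.66 for mespb, and -0.39 and 0.066 for snai1. Which genes turned depends on the scale. For msgn1 the difference was 0.46 and 0.63 on this scale, while its vegetal share of the marginal mean in TPM was 92.4% and 115%.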

How the results depend on the processing

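The replicate block changed no call of a member other than those given above. For vegetal mass against marginal zones, 2 calls became 1 without TMM, with limma on log2(TPM + 0.1) and with only the libraries compared, as myf5 fell just outside (adjusted p 0.051, 0.0528 and 0.0541). For dorsal against ventral marginal zone, 0 became 1 with the replicate block and with DESeq2, while calls over all genes went from 7 to 229 and 162. With only the libraries compared, calls between cap and vegetal mass went from 5 to 2, and from 1265 to 390 over all genes. Over the 10 pairs they went from 22 to 2, and from 2981 to 391 over all genes. Between cap and vegetal mass 7 members were called with DESeq2 (2540 over all genes). Without TMM (1263) and in both limma fits (1356 and 1336) 6 were called, with twist1 added. Over the 10 pairs the calls were 30 with DESeq2 (8404), 26 and 23 with limma (3574 and 3272) and 19 without TMM (2978). In the region comparisons fewer of all genes were called with each library left out. For dorsal against ventral no gene at all was called in such fits, so the range for the members cannot decide there. With each library left out, counts ranged from 1 to 5 (marginal zones against cap), 1 to 2 (vegetal mass against marginal zones), 0 to 0 (dorsal against ventral), 3 to 5 (cap against vegetal mass), 5 to 14 (10 pairs), 0 to 3 (any region) and 2 to 4 (clutches). Directions turned in values near 0. Over the left-out libraries, vegetal minus marginal ranged from -0.17 to 0.90 for msgn1, -0.15 to 0.45 for mespa and -0.60 to 0.48 for mespb, each lowest without vegetal replicate 2. snai2 ranged from -0.10 to 0.78 for marginal zones minus cap and from -0.62 to 2.02 for dorsal minus ventral, and myf5 from -0.38 to 0.087 between clutches. The clutch difference of mespb was -0.052 with DESeq2, and -0.24 and -0.48 with limma on log2(TPM + 1) and log2(TPM + 0.1). Of 600 values for single genes, 518 kept direction and call, 54 lost the call, 15 gained it and 13 turned. The 518 include values called in neither fit, which had no call to lose, so they do not measure how steady the calls are. Depth limits myod1, snai2 outside the vegetal mass and twist1.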
